A study of Homo sapiens with 12 samples.

Results

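The urea cycle and the enzymes that break down amino acids were examined in Huh7 cells after knockdown of FAM111B. The members were 42 named genes, and the deposited table held a row for each of them among its 60666 genes. Of these, 39 reached 1 TPM or more in 3 or more of the libraries and were tested, among 14394 tested genes in all. TPM is a transcript level per unit of transcript length that is scaled to a fixed total in each library. GLS2, UROC1 and PRODH did not reach that level and have values but no test.

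Huh7 is an established human hepatocellular carcinoma line. RNA was sequenced from 3 libraries of the group labelled Control group and 3 of the group labelled FAM111B knockdown, called control and shFAM111B here. All were grown in high-glucose DMEM with serum, and per the study's methods the knockdown was made stable with a lentiviral hairpin and puromycin selection. The study's supplement lists a single hairpin sequence against FAM111B. The sources used here do not give whether the line was cloned or whether the 3 libraries of a group came from separate cultures. The p-values therefore measure the spread between these libraries, which may be technical. The Hep3B libraries of the series were not analysed here.

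In liver, the nitrogen of surplus amino acids is passed by aminotransferases to glutamate, and glutamate dehydrogenase in the mitochondrial matrix releases it as ammonia. The urea cycle then joins that ammonia and the nitrogen of aspartate into urea, partly in mitochondria and partly in the cytosol. The carbon skeletons of tyrosine, tryptophan, the branched-chain amino acids, histidine, lysine, proline and methionine each have a pathway of their own, most of which end in mitochondrial acyl-CoA esters or in intermediates of the citric acid cycle. Hepatocytes hold nearly all of these pathways, and liver cancer lines are known to keep only some of them.

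FAM111B itself was listed at 7.84, 8.29 and 7.99 TPM in the control libraries and at 0.96, 1.13 and 0.84 TPM in the shFAM111B libraries. Its log2 fold change was -2.20 ± 0.11 (standard error, n = 3 per group) on the scale of log2(TPM + 1), which is the scale of every fold change given here. Hepatocyte markers were present at high levels in all libraries. Albumin (ALB) went from 6444 ± 41.1 to 4161 ± 185 TPM (SD, n = 3), and alpha-fetoprotein (AFP), a fetal liver protein, from 7274 ± 200 to 23060 ± 1726 TPM. The 12 hepatocyte markers summed to 31039 to 31189 TPM in controls and 48300 to 55087 TPM in shFAM111B libraries. Of the markers of other cell types, KDR was 0 in every library, CD3E and DCN were at most 0.13 TPM, and PTPRC reached 2.39 TPM in control replicate 3. The summed endothelial markers ranged from 1.26 to 2.29 TPM and from 2.15 to 3.49 TPM, the fibroblast markers from 2.67 to 3.52 and from 3.34 to 5.71 TPM, and the leukocyte markers from 19.1 to 21.9 and from 23.8 to 26.1 TPM. Most of the leukocyte sum was CD68, at 15.0 to 17.6 and 21.9 to 23.4 TPM. The cholangiocyte markers ranged from 119 to 125 and from 208 to 244 TPM, with KRT7 at or near 0, KRT19 and EPCAM higher and SOX9 lower in the shFAM111B libraries, and their part in the results was not tested.

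The deposited values also moved as a whole. The median tested gene had a log2 fold change of -0.36, genes of the mitochondrial chromosome summed to 199600 ± 3029 TPM in controls and 76320 ± 2858 TPM after knockdown (SD, n = 3), and small ribosomal RNA genes summed to 23323, 42958 and 2567 TPM in shFAM111B replicates 1 to 3 against 686 to 2064 TPM in controls. Long transcripts had lower fold changes than short ones. The part of these shifts in the results was not tested. Each change is therefore given with its range under 5 other scalings of the libraries, and, where it matters, with the trend over transcript length and mean expression removed. The plain TPM ratio of a pair of genes within a library does not change when the whole library is multiplied by one factor, whereas ratios on the log2(TPM + 1) scale and ratios after quantile normalization can.

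Across the 39 tested genes, the median change was close to that of all tested genes, while single enzymes moved in opposite directions. The median log2 fold change of the members was -0.41, which was 0.05 below the median tested gene. Only ARG2 was at least 2-fold higher at P under 0.05 (limma), against 6.82% of all tested genes. MCCC2, DBT, AADAT and BCKDHB were at least 2-fold lower, which is 4 of 39 genes against 23.7% of all tested genes. At an adjusted p under 0.05 (limma, Benjamini-Hochberg over all tested genes), 8 members rose and 22 fell, and 9 did not pass, against 21.1% of all tested genes higher and 50.9% lower. The TPM of control and shFAM111B libraries did not overlap for 31 of the 39 genes, which was also so for 75.2% of all tested genes.

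Rescaling the libraries kept more of the rises than of the falls, and 4 of the 5 other scalings moved the median tested gene upward. Of the 8 genes that rose, 7 also did so under all 5 other scalings, namely NAGS, CPS1, ASL, ARG2, GSTZ1, BCAT2 and PCCA. Of the 22 that fell, 8 did so under all 5, namely ARG1, GLUD1, AADAT, BCKDHB, DBT, MCCC2, PCCB and MMUT. Over all tested genes, 17.6% rose and 29.3% fell under all of these scalings. At an adjusted p under 0.05 with the deposited TPM, 6 of the 22 tested members with a mitochondrial product rose and 13 fell, with a median log2 fold change of -0.58. Among the 17 that are mainly cytosolic, 2 rose and 9 fell, with a median of -0.38. Over all tested genes, 21.1% rose and 50.9% fell at that threshold, with a median of -0.36.

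**Figure D1:**
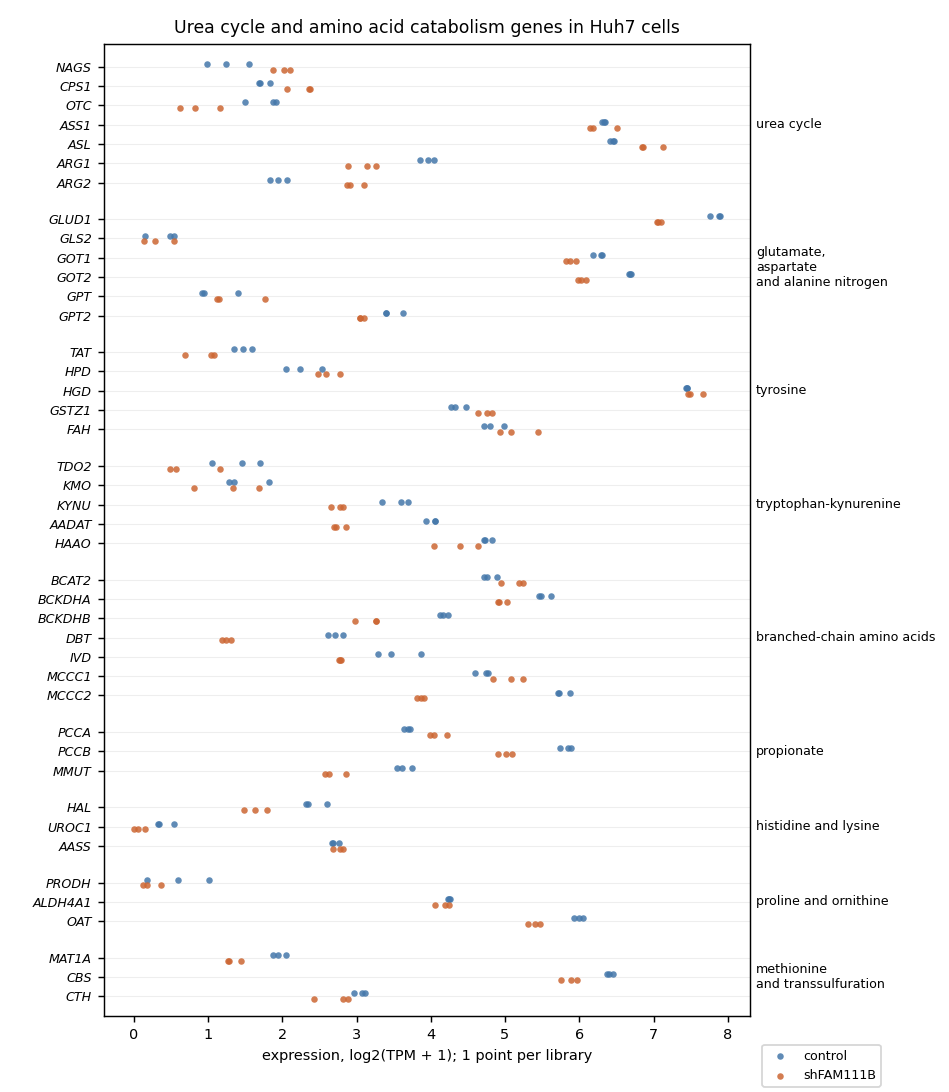
Expression of the 42 genes as log2(TPM + 1), with 1 point per library, control in blue and shFAM111B in orange, grouped by pathway. MCCC2, DBT, AADAT and ARG1 show the groups well apart with lower shFAM111B values, and ARG2 shows them apart with higher ones, while GLS2, KMO and AASS overlap.

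The sequences before the start sites of the gene with a 2-fold rise and of the 3 genes with the largest falls are shown because these genes carry the largest changes of the list. They come from RefSeq (GRCh38.p14), which gave a promoter for 36 of the 42 members, and each line runs from 250 bases before the RefSeq start to that start or to the next annotated exon of the gene in GENCODE v29, whichever comes first. For ARG2, MCCC2 and DBT the lines lie outside the annotated gene. The AADAT line lies in an intron of the annotated gene, of which the outermost transcript begins further upstream, at 170091699. Capitals mark CCAAT, the NF-Y motif, which reads ATTGG on the other strand, and TGACGTCA, the cyclic AMP response element motif, which reads the same on either strand. The runs are ARG2 at chr14:67619670-67619797 on the plus strand, MCCC2 at chr5:71587090-71587287 on the plus strand, DBT at chr1:100249835-100250084 on the minus strand, and AADAT at chr4:170090532-170090637 on the minus strand.
ARG2: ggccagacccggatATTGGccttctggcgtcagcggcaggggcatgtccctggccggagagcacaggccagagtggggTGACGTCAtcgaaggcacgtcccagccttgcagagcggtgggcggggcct
MCCC2: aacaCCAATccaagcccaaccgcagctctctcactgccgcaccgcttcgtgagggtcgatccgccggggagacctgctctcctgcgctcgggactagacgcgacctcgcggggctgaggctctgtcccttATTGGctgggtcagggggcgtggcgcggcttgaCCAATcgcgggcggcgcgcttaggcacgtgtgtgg
DBT: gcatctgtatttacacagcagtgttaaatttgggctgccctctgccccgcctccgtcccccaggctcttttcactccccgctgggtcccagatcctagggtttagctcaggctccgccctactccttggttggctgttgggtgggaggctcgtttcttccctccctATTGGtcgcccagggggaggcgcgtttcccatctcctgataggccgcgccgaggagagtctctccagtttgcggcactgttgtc
AADAT: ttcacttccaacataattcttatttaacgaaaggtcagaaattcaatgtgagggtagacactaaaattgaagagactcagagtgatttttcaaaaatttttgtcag

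In the full windows, ARG2 held TGACGTCA at 172 to 165 and again at 64 to 57 bases before the start, with CCAAT at 236 to 232 on the minus strand and 76 to 72 on the plus strand. Among the 36 member promoters ARG2 was the only one with TGACGTCA, which 1.77% of all 27305 promoters of the same length held on either strand. The MCCC2 window held CCAAT 3 times, at 246 to 242, 120 to 116 and 87 to 83 bases before the start. DBT held it once, and AADAT held none of the motifs searched. CCAAT was in 18 of the 36 member promoters (50.0%) and in 33.0% of all promoters. Of the liver motifs, CAAAGTCCA (HNF4) was in the HAAO promoter against 0.293% of all promoters, GTTAAT (HNF1) in those of KMO and GOT1 against 6.22%, and TGATGNAAN (ATF4 and C/EBP) in that of GOT1 against 3.18%. TTGCNNCAA and TTGCGCAA (both C/EBP) were in no member promoter, against 1.66% and 0.11% of all promoters. The GC content of the full windows was 72.4% for ARG2, 65.2% for MCCC2, 60.4% for DBT and 41.6% for AADAT, with a median of 58.0% over all promoters. The DBT window lies in an annotated antisense transcript, and AADAT has 3 starts in the table, of which the first was used.

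The urea cycle genes split. Of its 7 genes, 4 rose (NAGS, CPS1, ASL and ARG2) and 2 fell (OTC and ARG1), with a median log2 fold change of 0.50, which was 0.86 above the median tested gene. Over all tested genes, 21.1% rose and 50.9% fell at the same threshold, which is also the background of the group counts that follow. The levels in control cells were uneven, since the cytosolic middle of the cycle was abundant and its mitochondrial entry was near the limit of the test. ASL, which splits argininosuccinate into arginine and fumarate, had 84.1, 87.9 and 86.6 TPM in controls and 115, 114 and 139 TPM after knockdown. ASS1, which makes argininosuccinate, had 78.4, 80.1 and 79.4 TPM in controls and 69.6, 71.9 and 89.9 TPM after knockdown. The groups did not overlap for ASL, which rose by 0.50 ± 0.08 on the log2 scale, and they overlapped for ASS1, whose log2 fold change was -0.05 ± 0.10 (limma adjusted p = 0.674) and ranged from -0.17 to 0.48 under other scalings.

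At the entry of the cycle, CPS1 makes carbamoyl phosphate from ammonia, NAGS makes the N-acetylglutamate that activates CPS1, and OTC joins carbamoyl phosphate to ornithine. CPS1 had 2.24, 2.22 and 2.57 TPM in controls and 4.15, 4.17 and 3.17 TPM after knockdown. OTC had 1.83, 2.68 and 2.76 TPM in controls and 1.23, 0.78 and 0.54 TPM after knockdown. CPS1 was thus higher and OTC lower in every shFAM111B library. CPS1 rose by 0.53 ± 0.13 (limma adjusted p = 0.0102), and by 1.23 with the length trend removed. OTC fell with a log2 fold change of -0.89 ± 0.20 (limma adjusted p = 0.00487), which reached -0.36 and an adjusted p of 0.144 in the limma fit least favourable to it among the 5 scalings. In the shFAM111B group OTC reached 1 TPM only in replicate 1, so it was tested because of its control values. With no filter its adjusted p was 0.0215 (limma). NAGS rose from a mean of 1.43 to 3.02 TPM, a log2 fold change of 0.74 ± 0.18. The ratio of CPS1 to OTC was 1.22, 0.828 and 0.931 in controls and 3.37, 5.35 and 5.87 after knockdown.

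Arginase, which releases urea and ornithine from arginine, has a cytosolic form encoded by ARG1, typical of liver, and a mitochondrial form encoded by ARG2. ARG1 had 13.5, 15.6 and 14.6 TPM in controls and 6.41, 8.63 and 7.83 TPM after knockdown. ARG2 (ENSG00000081181, chromosome 14, 67619798 to 67651720) had 3.17, 2.83 and 2.57 TPM in controls and 6.29, 7.60 and 6.52 TPM after knockdown. The ranges did not overlap for either gene, and the forms moved in opposite directions. ARG1 fell with a log2 fold change of -0.86 ± 0.12 (limma adjusted p = 0.000509), and from -0.99 to -0.32 under the other scalings. ARG2 rose by 1.02 ± 0.12 (limma adjusted p = 0.00022), with 0.95 to 1.55 under the other scalings and 1.13 with the length trend removed. The rise was below 2-fold without control replicate 3 (0.96) and without shFAM111B replicate 2 (0.94). The ratio of ARG2 to ARG1 went from 0.235, 0.182 and 0.176 in controls to 0.981, 0.881 and 0.833 after knockdown, so that the forms were then listed at similar TPM.

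**Figure D2:**
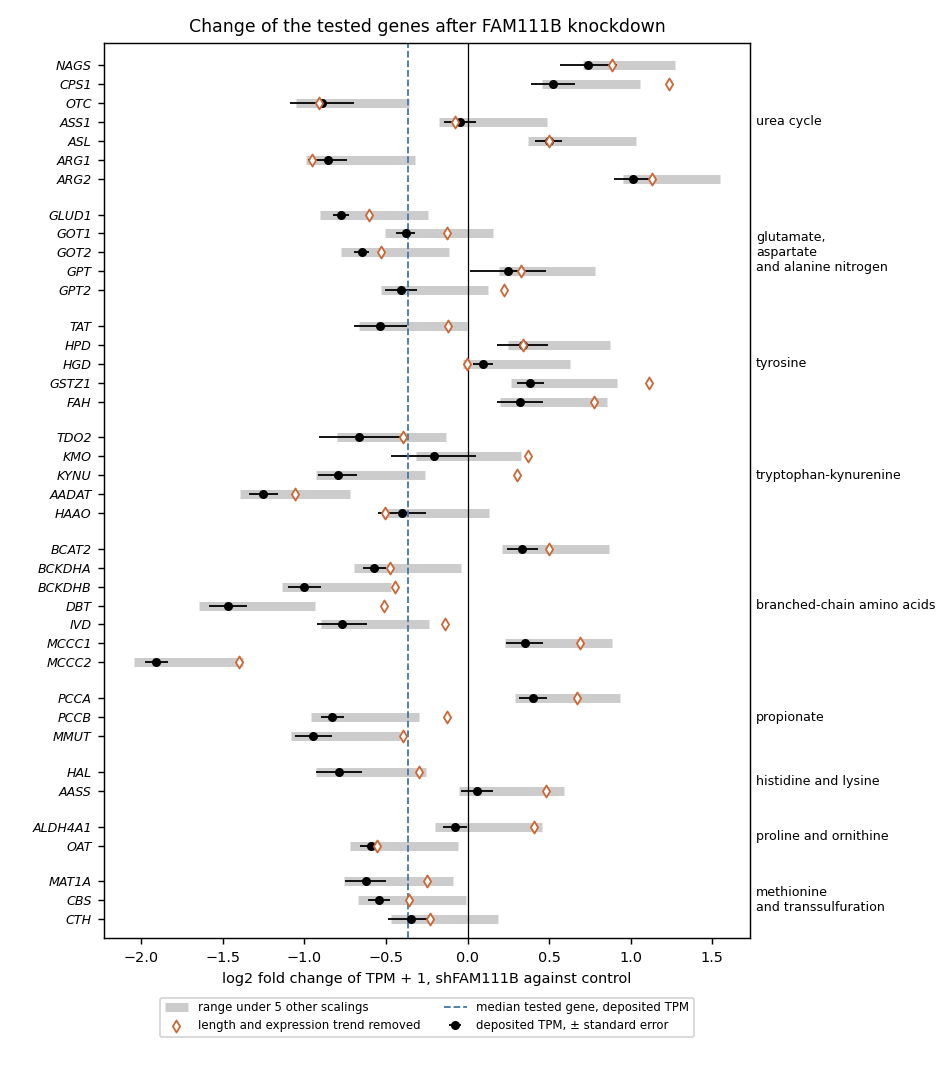
Log2 fold change of TPM + 1 for the 39 tested genes, shFAM111B against control, as black points with standard errors, with grey bars for the range under 5 other scalings, diamonds for the value with the length and expression trend removed, and a dashed line at the median tested gene (-0.36). MCCC2 at -1.91 lies farthest from the line, ARG2 at 1.02 is the highest, and KYNU and GPT2 have diamonds on the other side of 0 from their points.

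Among the genes that move nitrogen between glutamate, aspartate and alanine, 4 of 5 tested genes fell and none rose, against 50.9% of all tested genes lower and 21.1% higher. The median of the group, -0.41, was 0.05 below that of all tested genes. GLUD1, the glutamate dehydrogenase that frees ammonia from glutamate, had the highest mean TPM of all 42 genes. It had 238, 235 and 216 TPM in controls and 133, 136 and 132 TPM after knockdown, a log2 fold change of -0.77 ± 0.05 (limma adjusted p = 1.51e-05) that ranged from -0.90 to -0.24 under other scalings. GLUD2, an intronless copy of GLUD1 with which reads may be shared, had 7.79, 7.70 and 6.11 TPM in controls and 3.40, 4.17 and 3.04 TPM after knockdown. The sum of the group went from 407 to 430 TPM in controls to 262 to 270 TPM after knockdown.

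Aspartate aminotransferase passes amino groups between glutamate and oxaloacetate, in the cytosol as GOT1 and in mitochondria as GOT2. GOT1 had 77.3, 71.7 and 78.0 TPM in controls and 57.9, 55.4 and 60.8 TPM after knockdown. GOT2 had 102, 101 and 102 TPM in controls and 62.4, 64.2 and 67.1 TPM after knockdown. Each was lower in all shFAM111B libraries. GOT2 fell with a log2 fold change of -0.65 ± 0.05, and its largest adjusted p under the 5 scalings was 0.0574 (limma). GOT1 fell with a log2 fold change of -0.38 ± 0.06, close to that of the median tested gene, and its direction turned under median-of-ratios (0.07), upper-quartile (0.03) and median (0.15) scaling.

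Alanine aminotransferase, which links alanine to pyruvate, is encoded by GPT for the cytosolic form and GPT2 for the mitochondrial form. GPT was low, with 0.90, 0.93 and 1.65 TPM in controls and 1.18, 1.21 and 2.39 TPM after knockdown. GPT2 had 11.4, 9.52 and 9.52 TPM in controls and 7.61, 7.27 and 7.25 TPM after knockdown. The GPT ranges overlapped, with a log2 fold change of 0.25 ± 0.23 (limma adjusted p = 0.365). GPT2 fell with a log2 fold change of -0.41 ± 0.10, but was higher under quantile normalization (0.12), under median subtraction (0.13) and with the length trend removed (0.22). The liver glutaminase GLS2 was listed at 0.11 to 0.45 TPM in controls and 0.10 to 0.46 TPM after knockdown, and was not tested.

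Of the 5 genes of tyrosine catabolism, 2 passed the adjusted test, in opposite directions. GSTZ1, the maleylacetoacetate isomerase, rose, TAT, the tyrosine aminotransferase at the entry, fell, and the other 3 genes did not pass. HGD, which opens the ring of homogentisate, was the most abundant of the group. It had 174, 173 and 172 TPM in controls and 179, 176 and 202 TPM after knockdown. The groups did not overlap, yet the log2 fold change was only 0.10 ± 0.06 (limma adjusted p = 0.187), and it turned to -0.01 under quantile normalization and -0.03 under nuclear protein-coding scaling. GSTZ1 rose from a mean of 19.5 to 25.7 TPM, a log2 fold change of 0.38 ± 0.08, and by 1.11 with the length trend removed. HPD, which makes homogentisate, had a log2 fold change of 0.34 ± 0.16, and FAH, which splits fumarylacetoacetate at the end of the pathway, one of 0.32 ± 0.14, with limma adjusted p-values of 0.0898 and 0.0776. TAT was near the limit of the test, at 1.56 to 2.02 TPM in controls and 0.62 to 1.12 TPM after knockdown, and its fall of -0.53 ± 0.16 lost its call without control replicate 1 (-0.47), without control replicate 2 (-0.53) or without shFAM111B replicate 1 (-0.41). The fall of TAT came to -0.0013 under the scaling least favourable to it, with an adjusted p of 0.995 (limma).

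In the kynurenine pathway of tryptophan, 4 of 5 genes fell and none rose, against 50.9% of all tested genes lower and 21.1% higher. The clearest was AADAT (ENSG00000109576, chromosome 4, 170060222 to 170091699), a mitochondrial aminotransferase that acts on kynurenine and on the lysine product 2-aminoadipate. It had 15.6, 14.2 and 15.6 TPM in controls and 5.62, 6.25 and 5.51 TPM after knockdown. The groups lay far apart, with a log2 fold change of -1.25 ± 0.09 (limma adjusted p = 2.01e-05), -1.39 to -0.72 under the other scalings and -1.06 with the length trend removed. HAAO, the 3-hydroxyanthranilate dioxygenase near the end of the pathway, had the highest level of the group. It had 27.45, 25.49 and 25.21 TPM in controls and 20.04, 15.45 and 23.88 TPM after knockdown. HAAO was lower in every shFAM111B library by an uneven amount, and its log2 fold change of -0.40 ± 0.15 (limma adjusted p = 0.0423) turned to 0.04, 0.06 and 0.13 under median-of-ratios, quantile and median scaling. Its call was also lost when any control library or shFAM111B replicate 1 or 2 was left out, with -0.42 to -0.24.

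The other genes of the kynurenine pathway were less certain. KYNU, the kynureninase, fell from a mean of 10.7 to 5.73 TPM, a log2 fold change of -0.80 ± 0.12. Its largest adjusted p under the 5 scalings was 0.0764 (limma). Its longest annotated transcript is 15316 nt, and with the length trend removed its log2 fold change was 0.30, which passed the test as a rise (limma adjusted p = 0.0463). TDO2, the tryptophan dioxygenase that opens the pathway in liver, was at 1.08 to 2.24 TPM in controls and 0.40 to 1.24 TPM after knockdown. The TDO2 ranges overlapped, and its fall of -0.66 ± 0.25 (limma adjusted p = 0.046) was no longer called without control replicate 1 (-0.52), control replicate 3 (-0.63), shFAM111B replicate 1 (-0.58) or shFAM111B replicate 3 (-0.53), nor with the length trend removed (-0.39). In the shFAM111B group TDO2 reached 1 TPM only in replicate 2, so it was tested because of its control values. With no filter it was not called (limma adjusted p = 0.115). KMO, the kynurenine monooxygenase of the outer mitochondrial membrane, had a log2 fold change of -0.21 ± 0.26 (limma adjusted p = 0.499), of the opposite sign under all scalings but the nuclear protein-coding one.

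The branched-chain amino acid genes held 3 of the 4 members that were at least 2-fold lower. All 7 passed the adjusted test, 5 of them lower and 2 higher, with a median log2 fold change of -0.77, against 50.9% of all tested genes lower, 21.1% higher and 23.7% at least 2-fold lower. BCAT2, the mitochondrial aminotransferase of the first step, rose from a mean of 26.7 to 34.0 TPM, a log2 fold change of 0.33 ± 0.09, and was not called without control replicate 1 (0.30) or shFAM111B replicate 1 (0.31). IVD, the isovaleryl-CoA dehydrogenase of leucine breakdown, fell from a mean of 10.8 to 5.86 TPM, a log2 fold change of -0.77 ± 0.15. It was -0.14 and not called with the length trend removed (limma adjusted p = 0.44). Its largest adjusted p under the 5 scalings was 0.195 (limma).

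The branched-chain keto acid dehydrogenase commits these amino acids to oxidation, with BCKDHA and BCKDHB encoding the subunits of its decarboxylase and DBT its transacylase core. BCKDHA had 43.0, 43.8 and 48.1 TPM in controls and 28.9, 29.3 and 31.6 TPM after knockdown. BCKDHB (ENSG00000083123, chromosome 6, 80106647 to 80346270) had 17.8, 16.5 and 16.9 TPM in controls and 8.59, 8.64 and 6.91 TPM after knockdown. DBT (ENSG00000137992, chromosome 1, 100186919 to 100249834) had 6.06, 5.54 and 5.14 TPM in controls and 1.29, 1.48 and 1.37 TPM after knockdown. All 3 subunit genes were lower in every shFAM111B library, DBT by the most. The log2 fold changes were -0.57 ± 0.07 for BCKDHA, the 2-fold limit itself for BCKDHB (standard error 0.10, -0.97 without control replicate 1 and -0.91 without shFAM111B replicate 3) and -1.47 ± 0.12 for DBT (limma adjusted p = 3.16e-05). The order of the falls was also that of the longest transcripts, at 2103, 3692 and 10799 nt. With the length trend removed the log2 fold changes were -0.48, -0.44 and -0.51, and each passed the adjusted test in that fit. Under the other scalings BCKDHA ranged from -0.70 to -0.04, with a largest adjusted p of 0.634 (limma).

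The methylcrotonyl-CoA carboxylase of leucine breakdown, a mitochondrial biotin enzyme, has an alpha subunit encoded by MCCC1 and a beta subunit encoded by MCCC2, and these genes moved in opposite directions. MCCC1 had 26.4, 23.1 and 25.7 TPM in controls and 32.7, 27.6 and 37.0 TPM after knockdown. MCCC2 (ENSG00000131844, chromosome 5, 71587288 to 71658704) had 57.57, 51.96 and 51.23 TPM in controls and 13.04, 13.96 and 13.61 TPM after knockdown. MCCC2 lay above MCCC1 in every control library and below it in every shFAM111B library. MCCC2 fell with a log2 fold change of -1.91 ± 0.07 (limma adjusted p = 2.65e-06), from -2.05 to -1.37 under the other scalings and -1.40 with the length trend removed, and only 3.68% of all tested genes had a lower value. MCCC1 rose by 0.35 ± 0.11 (limma adjusted p = 0.0261), and its call was lost under 1 of the 5 scalings (adjusted p = 0.0595 in limma) and without control replicates 2 (0.30) or 3 (0.37) or shFAM111B replicates 1 (0.34) or 3 (0.25). The ratio of MCCC2 to MCCC1 was 2.18, 2.25 and 2.00 in controls and 0.399, 0.506 and 0.368 after knockdown.

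Propionyl-CoA, formed from valine, isoleucine, methionine and threonine, is carboxylated by a related biotin enzyme with the subunits PCCA and PCCB, and methylmalonyl-CoA mutase (MMUT) then turns the product into succinyl-CoA. PCCA had 11.4, 12.2 and 11.9 TPM in controls and 14.9, 15.5 and 17.6 TPM after knockdown. PCCB had 56.86, 58.33 and 52.70 TPM in controls and 33.02, 29.01 and 31.25 TPM after knockdown. As with MCCC1 and MCCC2, the alpha subunit gene was higher and the beta subunit gene lower in every shFAM111B library. PCCA rose by 0.40 ± 0.09 (limma adjusted p = 0.00435) and PCCB fell with a log2 fold change of -0.83 ± 0.07 (limma adjusted p = 4.36e-05). These calls held under all 5 scalings, but with the length trend removed PCCB (6090 nt) had a log2 fold change of -0.13 and an adjusted p of 0.144 in limma. MMUT fell from a mean of 11.4 to 5.48 TPM, a log2 fold change of -0.94 ± 0.11 under the deposited TPM and -0.39 with the length trend removed.

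**Figure D3:**
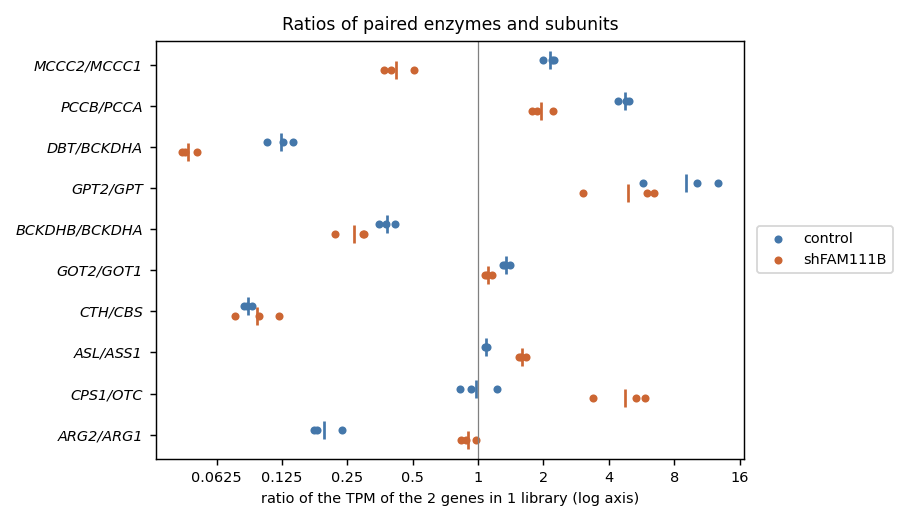
Ratios of the TPM of paired enzymes and subunits within each library on a log axis, with 1 point per library and a bar at the geometric mean, control in blue and shFAM111B in orange. The ratio of MCCC2 to MCCC1 crosses 1, the ratio of ARG2 to ARG1 comes close to 1 after knockdown, and the ratios of CTH to CBS and of GPT2 to GPT overlap between the groups.

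The 10 ratios were compared on the scale of log2(TPM + 1) with an exact two-sided permutation test over the 6 libraries, in which the smallest possible p is 0.1. The groups did not overlap for 9 ratios, each at the smallest possible p of 0.1 (exact permutation test, 0.111 adjusted over the 10 ratios), so no ratio could pass a threshold of 0.05. The plain TPM ratios did not overlap for 8 of the 10. Other gene pairs were not compared, and the TPM of single genes did not overlap for 75.2% of all tested genes. The log2 ratio fell by 2.26 for MCCC2 to MCCC1, fell by 1.23 for PCCB to PCCA and rose by 1.87 for ARG2 to ARG1 and by 1.42 for CPS1 to OTC. With the length trend removed these were -2.09, -0.80, 2.08 and 2.14, so that CPS1 to OTC then differed the most. Under the 5 other scalings each ratio kept its direction, and GPT2 to GPT ranged from -0.72 to -0.36, BCKDHB to BCKDHA from -0.45 to -0.27 and CPS1 to OTC from 1.42 to 1.54. The ratio of ASL to ASS1 rose by 0.55, and was 0.57 with the trend removed. That of GOT2 to GOT1 fell by 0.27, against -0.41 with the trend removed. Within the keto acid dehydrogenase, BCKDHB to BCKDHA fell by 0.43 and DBT to BCKDHA fell by 0.90, and with the trend removed the differences were near 0, at 0.03 and -0.04. For GPT2 to GPT, which fell by 0.66 against -0.10 with the trend removed, the plain TPM ratios overlapped, at 5.77 to 12.7 in controls and 3.03 to 6.45 after knockdown. CTH to CBS differed by 0.20, with overlapping groups (exact permutation p = 0.4).

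Of the histidine and lysine genes, HAL fell, AASS did not pass the test, and UROC1 was too low to be tested. HAL, the histidine ammonia-lyase, went from a mean of 4.38 to 2.12 TPM, a log2 fold change of -0.79 ± 0.14. With the length trend removed HAL was at -0.30 and not called (limma adjusted p = 0.103). Under the other scalings it ranged from -0.93 to -0.25, with a largest adjusted p of 0.149 (limma). AASS, the bifunctional enzyme that starts lysine breakdown in mitochondria, had 5.40, 5.78 and 5.34 TPM in controls and 6.07, 5.40 and 5.87 TPM after knockdown. The ranges overlapped, with a log2 fold change of 0.06 ± 0.10 (limma adjusted p = 0.604) that was -0.05 under nuclear protein-coding scaling. UROC1, the urocanase after HAL, was at 0.26 to 0.46 TPM in controls and 0.00 to 0.11 TPM after knockdown.

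Of the proline and ornithine genes, OAT fell. OAT, the mitochondrial ornithine aminotransferase, had 65.3, 62.8 and 59.9 TPM in controls and 43.4, 41.5 and 38.8 TPM after knockdown, with no overlap. The log2 fold change was -0.59 ± 0.06 (limma adjusted p = 0.000132), and it reached -0.06 under the scaling least favourable to it. ALDH4A1, which turns the product of proline oxidation into glutamate, had a log2 fold change of -0.08 ± 0.07 (limma adjusted p = 0.365) that was positive, at 0.31 to 0.45, under 4 of the 5 scalings. PRODH, the proline dehydrogenase before it, was at 0.13 to 1.02 TPM in controls and 0.09 to 0.29 TPM after knockdown.

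Of the methionine and transsulfuration genes, MAT1A and CBS fell, and CTH did not pass the adjusted test. MAT1A, the S-adenosylmethionine synthetase of adult liver, was low and went from a mean of 2.89 to 1.53 TPM, a log2 fold change of -0.62 ± 0.13. Under the other scalings MAT1A ranged from -0.76 to -0.09, with a largest adjusted p of 0.54 (limma). With the length trend removed it was -0.25 and not called (limma adjusted p = 0.131). CBS, which joins homocysteine to serine, had 83.8, 81.6 and 86.4 TPM in controls and 52.8, 58.0 and 61.5 TPM after knockdown. CTH, which splits cystathionine into cysteine, had 7.62, 6.84 and 7.42 TPM in controls and 6.36, 4.38 and 6.02 TPM after knockdown. Each was lower in every shFAM111B library, with log2 fold changes of -0.54 ± 0.07 for CBS (limma adjusted p = 0.00027) and -0.34 ± 0.14 for CTH (limma adjusted p = 0.0606). The change of CTH was positive under 4 of the 5 scalings, at 0.01 to 0.19, and that of CBS came to -0.01. CBSL, a near-identical copy of CBS elsewhere on chromosome 21, went the other way, from 8.50, 8.17 and 9.38 TPM to 18.5, 14.3 and 17.0 TPM, so that the split of reads between CBS and CBSL is uncertain.

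In the sum over all 42 genes, the TPM were 1358, 1331 and 1324 in controls and 1051, 1039 and 1155 after knockdown (exact permutation p = 0.1, the smallest possible). The sum was lower in every shFAM111B library, as were those of 7 of the 9 groups, while the sums of the urea cycle group and of the tyrosine group were higher. The median tested gene was also lower, at -0.36 on the log2 scale. For 75.2% of all tested genes the TPM of the groups did not overlap. The urea cycle group summed to 185 to 193 TPM in controls and 206 to 250 TPM after knockdown, and ASL and ASS1 supplied most of it. In bulk samples, fewer cells with an RNA and less of it per cell cannot be told apart.

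A further 76 genes of the same pathways were taken as a list, of which 68 were tested. Of these, 14 rose and 42 fell at an adjusted p under 0.05, 1 was at least 2-fold higher and 13 at least 2-fold lower, and their median was -0.35 on the log2 scale. Over all tested genes, 21.1% rose, 50.9% fell, 6.82% were at least 2-fold higher and 23.7% at least 2-fold lower, with a median of -0.36. In the group of urea cycle carriers and ammonia handling, 6 of 7 tested genes fell and 1 rose. In the phenylalanine and tyrosine group 5 of 7 fell, in the tryptophan and lysine group 6 of 10, in the branched-chain group 9 of 17, in the histidine, glycine and serine group 5 of 10, in the proline and ornithine group 4 of 5, and in the methionine and sulfur group 7 of 12. The numbers that rose in those groups were 1, 3, 4, 2, 0 and 3.

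The 3 falls with the smallest p were in GLUL, MAT2A and BCAT1. GLUL, the glutamine synthetase that binds ammonia, went from a mean of 329 to 80.6 TPM, a log2 fold change of -2.02 ± 0.06. MAT2A, the S-adenosylmethionine synthetase found outside adult liver, went from 181 to 51.9 TPM, a log2 fold change of -1.79 ± 0.06. BCAT1, the cytosolic branched-chain aminotransferase, went from 28.7 to 9.85 TPM, a log2 fold change of -1.45 ± 0.07 that was -0.49 with the length trend removed (9674 nt). The mitochondrial counterpart BCAT2 rose, as given above, and the liver counterpart of MAT2A, MAT1A, fell.

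The 3 rises with the smallest p were in QPRT, ECHS1 and ETHE1. QPRT, which makes the NAD precursor nicotinate mononucleotide from the kynurenine product quinolinate, went from a mean of 132 to 222 TPM, a log2 fold change of 0.75 ± 0.05. ECHS1, the short-chain enoyl-CoA hydratase used in valine and fatty acid breakdown, went from 165 to 283 TPM, a log2 fold change of 0.77 ± 0.06. ETHE1, a mitochondrial persulfide dioxygenase of sulfur amino acid breakdown, went from 14.4 to 30.8 TPM, a log2 fold change of 1.05 ± 0.08. All 3 kept a positive value under the 5 scalings and with the length trend removed, where they were 0.75, 0.51 and 0.68.

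**Figure D4:**
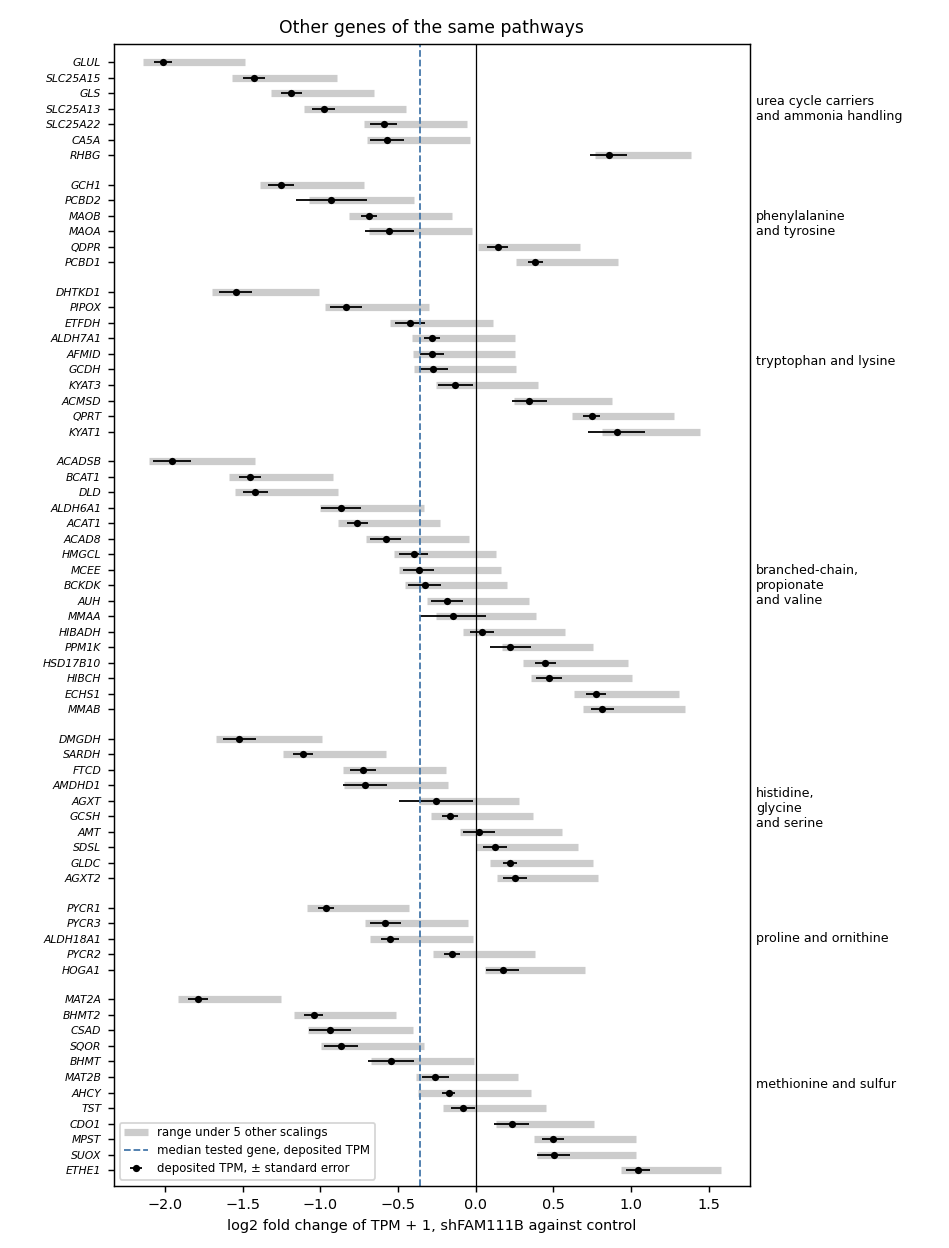
Log2 fold change of TPM + 1 for the reported further genes of these pathways that were tested, shFAM111B against control, as points with standard errors, with grey bars for the range under 5 other scalings and a dashed line at the median tested gene. GLUL (-2.02), ACADSB (-1.96) and MAT2A (-1.79) lie farthest to the left, and ETHE1 (1.05) is the only point at or beyond 1.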

How the data were processed

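RNA was sequenced from 3 control and 3 shFAM111B Huh7 libraries. The authors deposited 1 table with the TPM of each library, group means, and their own comparison columns, which were not used: a ratio of the groups, log2 of that ratio, and p-values before and after adjustment. The submitters' processing notes name RSEM, DESeq2 and hg38, with no roles. The labels describe a stranded poly(A) mRNA kit and the paper a TruSeq kit. TPM hold no read depth, so no counting error is given and no count test was run.

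Genes that reached 1 TPM or more in 3 or more libraries were compared as log2(TPM + 1) with limma-trend (limma 3.58.1, R 4.3.3) without covariates. Calls needed a fold of at least 2 and P under 0.05, or a Benjamini-Hochberg adjusted p under 0.05 over all tested genes. Positions and lengths are from GENCODE v29 (GRCh38), which held 58420 of the 60666 identifiers. The fit was checked on simulated data. Figures and tables used Python 3.11.15.

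The members, the further lists and the tests were chosen with earlier results of these data known. Values in every library were given for members past 2-fold and P under 0.05, for the most abundant gene of each group and for genes of the 10 ratios. Alternatives were no filter, 1 TPM in every library, a pseudocount of 0.1, 5 scalings (median-of-ratios, upper-quartile, quantile, median subtraction, nuclear protein-coding total), removal of a loess trend over length and expression (span 0.75), a replicate block, and leaving out each library. Trend removal and the scalings for the ratios were added after the data were seen. The result of 1 gene of the further list is not reported here, and it stays in the totals.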

Additional observations from a re-analysis of the deposited data

How the results depend on the processing

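The count of members at least 2-fold higher was 1 with the deposited TPM, 2 with a pseudocount of 0.1 TPM or under median-of-ratios, upper-quartile or quantile scaling, 4 under median subtraction, 0 under nuclear protein-coding scaling and 3 with the length and expression trend removed. The shares of all tested genes at least 2-fold higher were 6.82% with the deposited TPM, 8.80% with that pseudocount, 11.8% to 14.1%, 18.0%, 6.07% and 8.89% in the same order. The count at least 2-fold higher was 0 to 1 with a library left out, against 6.38% to 7.55% of all tested genes. It was 0 without control replicate 3 or shFAM111B replicate 2. The count at least 2-fold lower was 4, against 8 with a pseudocount of 0.1 TPM, 2 under median-of-ratios, upper-quartile or quantile scaling or with the trend removed, 1 under median subtraction and 6 under nuclear protein-coding scaling. The shares of all tested genes at least 2-fold lower were 23.7% with the deposited TPM, 29.6% with that pseudocount, 12.5% to 13.3% under the first 3 scalings, 10.2% with the trend removed, 9.07% and 29.2%. With a library left out the lower count was 3 to 5, against 23.4% to 24.7% of all tested genes. BCKDHB was below 2-fold without control replicate 1 (-0.97) or shFAM111B replicate 3 (-0.91). At an adjusted p under 0.05, 8 rose, against 14 under median-of-ratios and upper-quartile scaling, 16 under median subtraction and 12 with the trend removed. The falls numbered 22, against 12, 16 and 8 under those scalings and 13 with the trend removed. The corresponding shares of all tested genes were 35.8% higher and 35.2% lower under median-of-ratios scaling and 41.6% and 29.4% under median subtraction. The median log2 fold change of the members was -0.41, against -0.00023, -0.0365, -0.20 and 0.125 under median-of-ratios, upper-quartile, quantile and median scaling, -0.53 under nuclear protein-coding scaling and -0.12 with the trend removed. It ranged from -0.53 to -0.36 with a library left out, and was -0.53 without shFAM111B replicate 3. Why these counts moved was not tested beyond the shift of the median tested gene that each scaling makes.

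A pseudocount of 0.1 TPM moved the log2 ratios of ARG2 to ARG1 to 2.16, DBT to BCKDHA to -1.36 and CPS1 to OTC to 2.13. With the trend removed, the ratios were 2.08 for ARG2 to ARG1, -0.41 for GOT2 to GOT1, -0.10 for GPT2 to GPT, 0.0334 for BCKDHB to BCKDHA, -0.0368 for DBT to BCKDHA, -0.80 for PCCB to PCCA and 2.14 for CPS1 to OTC. Quantile normalization gave -0.35 for GOT2 to GOT1, -1.42 for PCCB to PCCA, 0.47 for ASL to ASS1 and 0.54 for CTH to CBS.

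Signs turned for 10 members. Under median-of-ratios scaling the log2 fold changes were 0.40 for ASS1, 0.0701 for GOT1, 0.0666 for KMO, 0.0363 for HAAO, 0.35 for ALDH4A1 and 0.0483 for CTH. Under upper-quartile scaling they were 0.36 for ASS1, 0.0302 for GOT1, 0.0412 for KMO, 0.31 for ALDH4A1 and 0.0132 for CTH. Under quantile normalization they were 0.077 for ASS1, 0.12 for GPT2, -0.0121 for HGD, 0.0413 for KMO, 0.058 for HAAO, 0.41 for ALDH4A1 and 0.17 for CTH. Under median subtraction they were 0.48 for ASS1, 0.15 for GOT1, 0.13 for GPT2, 0.32 for KMO, 0.13 for HAAO, 0.45 for ALDH4A1 and 0.19 for CTH. Nuclear protein-coding scaling gave -0.0293 for HGD and -0.0505 for AASS, and removal of the trend gave 0.22 for GPT2, -0.0063 for HGD, 0.37 for KMO, 0.30 for KYNU and 0.41 for ALDH4A1. With a library left out, ASS1 ranged from -0.162 (without shFAM111B replicate 3) to 0.0207 and KMO from -0.415 (without shFAM111B replicate 3) to 0.0269, in each case highest without shFAM111B replicate 1.

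Deviations from the group means correlated weakly between libraries with the same replicate number, at 0.054, 0.0349 and 0.0908. Other pairs of libraries had -0.0763 to 0.0442, and shFAM111B replicate 2 correlated best with control replicate 1 (0.0442). Whether the numbers pair the libraries was not tested. With the replicate number as a block, 8 members rose and 20 fell, against 21.0% and 50.0% of all tested genes, and TAT and TDO2 were no longer called. The TPM hold no depth, so the precision of the low genes (NAGS, CPS1, OTC, ARG2, GPT, HPD, TAT, TDO2, KMO, DBT, HAL and MAT1A, all with a mean under 5 TPM over the 6 libraries) rests on the spread of 3 libraries.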

Other observations

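The following genes of the further pathway list were chosen after their values were seen. DLD, the dihydrolipoamide dehydrogenase shared by the branched-chain and other keto acid dehydrogenases, went from a mean of 120 to 44.1 TPM, a log2 fold change of -1.42 ± 0.08 that was -1.02 with the length trend removed. ACADSB, the short/branched-chain acyl-CoA dehydrogenase of isoleucine breakdown, went from a mean of 29.7 to 6.92 TPM, a log2 fold change of -1.96 ± 0.12 that was -1.15 with the length trend removed.

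The mitochondrial ornithine carrier SLC25A15, which supplies OTC, went from a mean of 20.1 to 6.85 TPM, a log2 fold change of -1.43 ± 0.07, and the aspartate-glutamate carrier SLC25A13 had -0.98 ± 0.07. The homocysteine methyltransferase BHMT2 had a log2 fold change of -1.04 ± 0.06, the dimethylglycine dehydrogenase DMGDH -1.52 ± 0.10 and the sarcosine dehydrogenase SARDH -1.11 ± 0.07. The cobalamin enzyme MMAB, which serves MMUT, had 0.81 ± 0.07 against -0.94 ± 0.11 for MMUT itself.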
